A study of Homo sapiens with 18 samples.

Results

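The 31 genes described here are direct targets of the transcription factor p53 that lie outside the BCL2 family of apoptosis regulators. They were chosen by symbol, with earlier results of these data known. All 31 were found among the 31004 genes of the count table. For 30 of them the counts were high enough to test in each comparison. SPATA18, a gene of mitochondrial quality control, had 13 counts in all, spread over 6 of the 18 libraries with at most 5 in any of them, and was not tested.

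p53 is a tumour suppressor that is held at a low level by its ubiquitin ligase MDM2 and accumulates after DNA damage and other stress. It binds pairs of short related sequences, each of 10 bases, near its target genes and raises their transcription. The products of these genes stop the cell cycle, repair DNA, promote cell death, alter metabolism and feed back on p53 itself. HCT116 is a long-established line of human colorectal carcinoma cells.

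RNA was sequenced from HCT116 cells that stably carried one of 3 lentiviral constructs, namely an empty control (Ctrl), the long noncoding RNA CRLM1, or its antisense sequence (Antisense). Each of these backgrounds then received a construct with the HNRNPK cDNA (hnRNPK) or a negative control (NC). The vector of the hnRNPK construct is pTSB in the labels and a pCDNA plasmid in the methods of the study. The 6 groups, Ctrl_NC, Ctrl_hnRNPK, CRLM1_NC, CRLM1_hnRNPK, Antisense_NC and Antisense_hnRNPK, held 3 libraries each, described as biological replicates. All 18 libraries share the viral vector and puromycin selection, and the sources used here do not say whether a line was 1 clone. Where replicates came from the same stable line, p-values measure the spread between cultures of that line.

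Total counts ran from 19732681 to 27039520 per library. A count of 3, the limit that a count of 0 allows, corresponded to 0.0973 to 0.165 CPM (counting error only). In RNA from whole cultures, fewer cells of a kind and less RNA per cell cannot be told apart. Values are CPM, counts scaled to library size with TMM factors over all libraries. Differences are log2 fold changes with their SE from edgeR's quasi-likelihood test. A gene is said to rise, fall or pass where its Benjamini-Hochberg adjusted p over all genes tested was at most 0.05. Replicate 3 of Ctrl_hnRNPK and replicate 3 of CRLM1_hnRNPK stood apart: their log2 profiles correlated with the other libraries of their own group at r = 0.956 to 0.965 over 15668 genes and with the NC libraries of their background at 0.98 to 0.986. Every other library correlated with at least 1 library of its group at 0.987 or more. The study left both out, so each result that rests on them is given with and without them. HNRNPK stood at 626, 656 and 490.0 CPM in Ctrl_hnRNPK, 677, 717 and 581 CPM in CRLM1_hnRNPK and 534, 532 and 573 CPM in Antisense_hnRNPK. The NC levels were 462, 471 and 479.7 CPM in Ctrl_NC, 461, 454 and 454 CPM in CRLM1_NC and 431, 428 and 419 CPM in Antisense_NC. LINC01767, the gene of CRLM1, had no count in the 6 Ctrl libraries and stood at 598 ± 11.7 CPM in CRLM1_NC and 49.3 ± 0.566 CPM in Antisense_NC (SD, n = 3). Of 9 epithelial and colonic markers listed, 8 were among the counted genes and 7 reached 1 CPM, with a summed level of 3732.5 to 10044.5 CPM. This sum differed by group. It was 7268 to 7512 CPM in Ctrl_NC, 8406 to 8596 CPM in CRLM1_NC and 5845 to 6173 CPM in Antisense_NC. With the construct it was 5223 to 8346 CPM in Ctrl_hnRNPK, 5855 to 10044.5 CPM in CRLM1_hnRNPK and 3732.5 to 3831 CPM in Antisense_hnRNPK. Of the 6 fibroblast markers 1 reached 1 CPM, COL1A1 (sum 11.5 to 32.4 CPM). Of 5 leukocyte markers listed, 4 were counted and 1 did so, CD68 (1.02 to 5.08 CPM), and of 3 endothelial markers 0 (0.0449 to 0.535 CPM).

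Matches to the p53 response element were looked for around the starts of the genes, since binding to this sequence is what defines a direct target. A window of 3000 bases on each side of the start (genome build GRCh38, Gencode v44 gene starts) was searched on both strands for a pair of adjoining p53 decamers, 20 bases in all, with at most 1 mismatch. The core of each decamer (CNNG with A or T as N) had to be intact, and no gap between the decamers was allowed. Elements that are gapped, farther away or more degenerate were not looked for, so a gene without a match may still have one. Such a pair was found near 5 of the 31 genes (16.1%) and near 73 of 16390 protein-coding genes (0.445%). The match of RRM2B lies in an intron and is not shown. The other 4 pairs run 5′ to 3′ along the gene's strand, with the core of each decamer, read as CNNG, in capitals:
PLK2 (chr5:58462274-58462293, minus strand, outside the gene, 2154 bases before the start, 0 mismatches): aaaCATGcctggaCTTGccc
ZMAT3 (chr3:179070188-179070207, minus strand, intron, 2008 bases after the start, 0 mismatches): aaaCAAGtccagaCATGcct
CCNG1 (chr5:163437926-163437945, plus strand, intron, 357 bases after the start, 1 mismatch): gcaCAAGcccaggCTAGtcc
GADD45A (chr1:67686775-67686794, plus strand, intron, 1574 bases after the start, 1 mismatch): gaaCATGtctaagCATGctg

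A single exact decamer in the promoter, taken as 250 bases before to 50 bases after the start in RefSeq (GRCh38.p14), was found for 6 of the 25 genes that had such a window (24.0%), against 8.06% of 27305 gene symbols. The sites of all 6 are shown, and the levels of these genes are described next. The decamer is in capitals within 30 bases of the gene's strand:
DDB2 (chr11:47214969-47214998, plus strand, UTR exon of at least 1 transcript): aagctggtttGAACAAGCCCtgggcatgtt
DDB2, a further match (chr11:47214980-47215009, plus strand, UTR exon of at least 1 transcript): aacaagccctGGGCATGTTTggcgggaagt
FDXR (chr17:74872986-74873015, minus strand, UTR exon of at least 1 transcript): gggcaggagcGGGCTTGCCCtgcggagcag
FAS (chr10:88991299-88991328, plus strand, coding exon of at least 1 transcript): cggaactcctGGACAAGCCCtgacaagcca
SESN1 (chr6:109009018-109009047, minus strand, intron): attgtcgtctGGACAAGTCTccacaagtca
AEN (chr15:88621296-88621325, plus strand, outside the gene): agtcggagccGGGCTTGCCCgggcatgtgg
PLK2 (chr5:58460199-58460228, minus strand, outside the gene): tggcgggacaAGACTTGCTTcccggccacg

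A match describes these letters and was not tested as a binding site. Of the 31 genes, 16 share exon sequence with another annotated gene, among them CDKN1A, MDM2, PLK3, XPC, SESN1 and the TRAIL receptors, and the strand used in counting is not given in the sources used here, so reads of such a pair cannot be told apart.

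Per unit of length the genes differed widely in level. In Ctrl_NC the highest was GDF15, a secreted stress cytokine, at 623 ± 19.8 FPKM, the fragment count scaled by transcript length and library size (SD, n = 3). It was followed by CDKN1A, which encodes the cyclin-dependent kinase inhibitor p21, at 264 ± 4.91 FPKM and by GADD45A, a DNA damage-inducible regulator of the cell cycle and stress kinases, at 179.8 ± 3.19 FPKM. At the lower end APAF1, the scaffold of the apoptosome, stood at 1.41 ± 0.215 FPKM, TP53I3, a quinone oxidoreductase, at 1.56 ± 0.120 FPKM and SESN1, a sestrin that restrains mTORC1, at 1.59 ± 0.131 FPKM. These neighbours did not differ beyond their spread. The first 3 genes kept this order in CRLM1_NC (593 ± 7.94, 305 ± 6.47 and 158 ± 5.24 FPKM) and in Antisense_NC (831 ± 21.96, 348 ± 9.17 and 145 ± 3.74 FPKM).

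**Figure D1:**
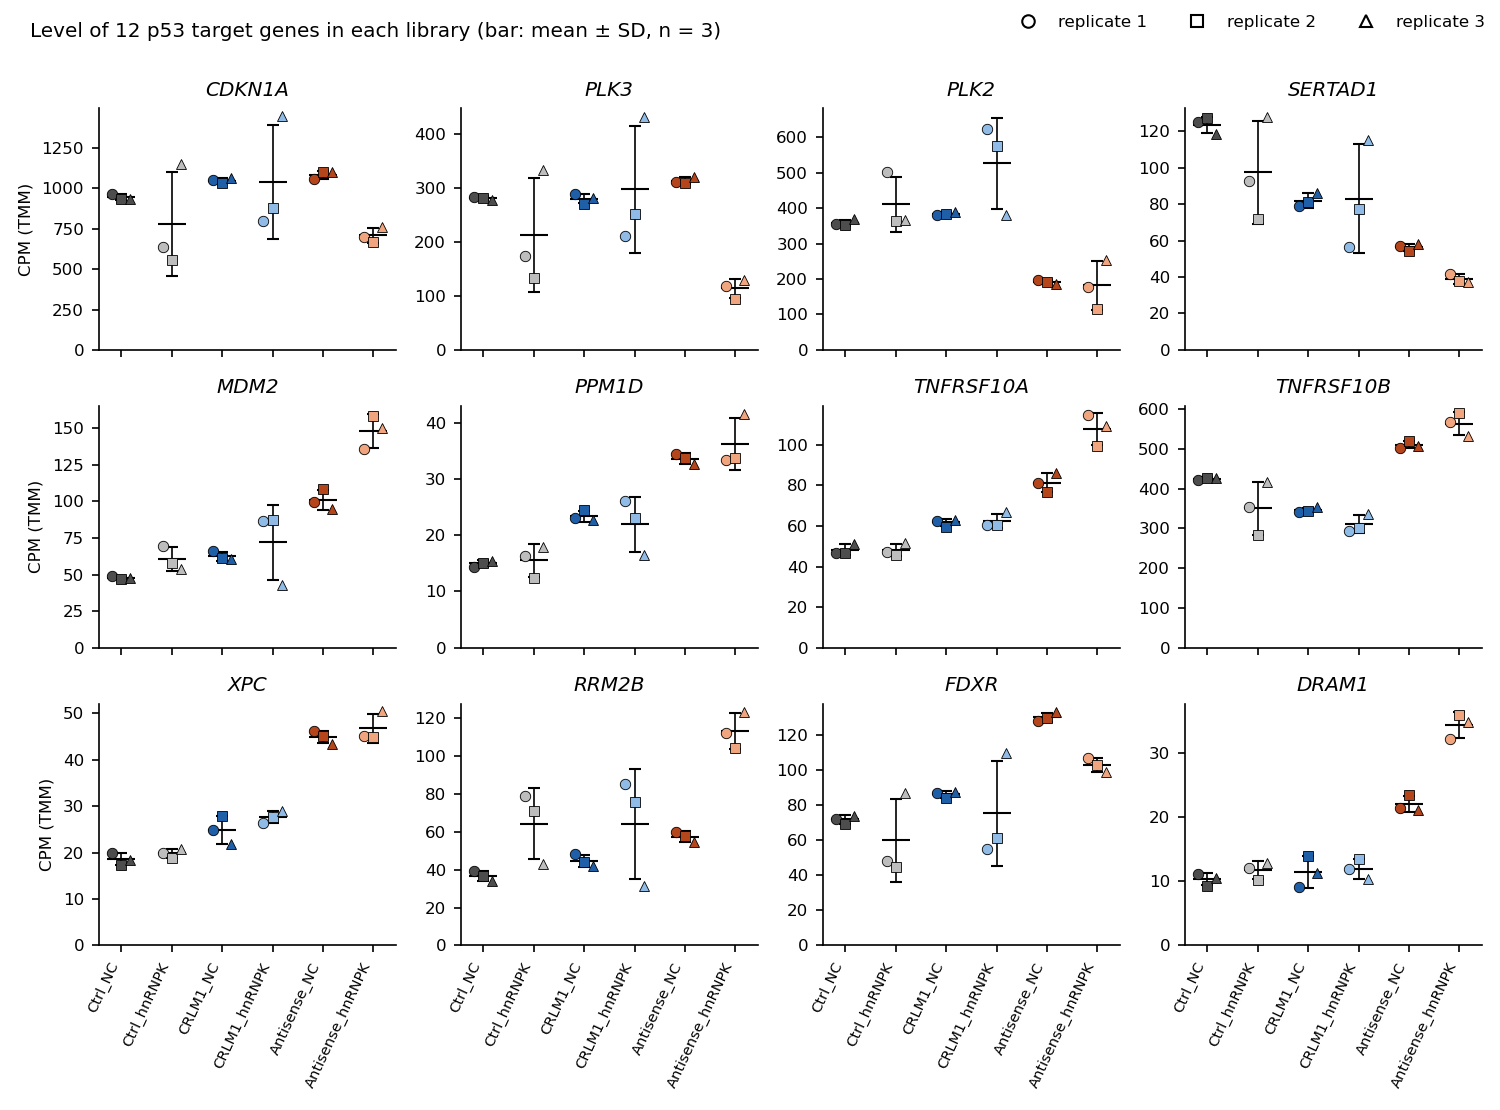
Level of 12 p53 target genes in each of the 18 libraries, in CPM on a linear axis from 0; points are libraries and the horizontal marks with error bars give the mean ± SD of 3 replicates. In MDM2, PPM1D and XPC the 3 Antisense_NC points sit above the 3 Ctrl_NC points, and in PLK3 replicate 3 of CRLM1_hnRNPK, at 431 CPM, sits above the other replicates of that group, at 210.2 and 251 CPM.

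The comparison of Antisense_NC with Ctrl_NC asked how the p53 targets stood in the antisense line, which the study used as a control for CRLM1. Most of them were higher there: 25 of 30 genes passed, 20 higher and 5 lower, against 66.5% of all 14389 genes tested (34.4% higher and 32.2% lower). The median log2 fold change of the 30 genes was 0.32 and that of all genes -0.0025. A change of at least 2-fold was reached by 5 of the 30 (14.1% of all genes), with MDM2, PPM1D, XPC and DRAM1 higher and SERTAD1 lower. All 4 genes of DNA repair and nucleotide supply and all 5 tested genes of metabolism, lysosome and secretion rose. The genes grouped under cell cycle arrest were split with 4 higher and 4 lower.

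Among the feedback regulators, MDM2, the ubiquitin ligase that targets p53 for degradation, measured 48.7, 46.99 and 47.6 CPM in Ctrl_NC, 66.1, 61.4 and 60.3 CPM in CRLM1_NC and 99.9, 109 and 94.7 CPM in Antisense_NC. The 3 groups did not overlap. The antisense line was 2.07-fold above the control (log2 fold change 1.05 ± 0.055 SE, adjusted p = 6.3e-19). PPM1D, the phosphatase WIP1 that switches off p53 and its kinases, measured 14.4, 15.1 and 15.5 CPM in Ctrl_NC, 23.01, 24.5 and 22.6 CPM in CRLM1_NC and 34.5, 33.7 and 32.6 CPM in Antisense_NC. The order of the lines was the same without overlap. The antisense line was 2.19-fold higher than the control (1.13 ± 0.083 SE, adjusted p = 1.3e-14). ZMAT3, an RNA-binding zinc finger protein, rose by 0.58 ± 0.070 (adjusted p = 4.5e-09). TP53INP1, a nuclear partner of p53 and promoter of autophagy, had a log2 fold change of 0.19 ± 0.10 (SE, adjusted p = 0.086) and did not pass.

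The repair genes moved together. XPC, the damage sensor of nucleotide excision repair, stood at 19.9, 17.3 and 18.5 CPM in Ctrl_NC, 24.9, 27.9 and 21.8 CPM in CRLM1_NC and 46.1, 45.2 and 43.4 CPM in Antisense_NC. There it was 2.37-fold above the control (1.25 ± 0.076 SE, adjusted p = 6.3e-17). DDB2, which recognises ultraviolet lesions and carries 2 decamers in its promoter, stood at 26.1, 23.8 and 22.9 CPM in Ctrl_NC, 31.9, 29.6 and 27.4 CPM in CRLM1_NC and 40.5, 44.7 and 40.4 CPM in Antisense_NC (0.76 ± 0.075 SE, adjusted p = 3.2e-11). For both genes the lowest antisense library lay above the highest of the other 2 lines. RRM2B, the p53-inducible subunit of ribonucleotide reductase, rose by 0.62 ± 0.065 (adjusted p = 1.3e-10) and POLH, a translesion DNA polymerase, by 0.48 ± 0.088 (adjusted p = 1.0e-05).

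The genes of metabolism, lysosome and secretion were likewise higher in the antisense line. DRAM1, a lysosomal membrane protein that promotes autophagy, measured 11.1, 9.28 and 10.5 CPM in Ctrl_NC, 9.12, 14.02 and 11.2 CPM in CRLM1_NC and 21.5, 23.5 and 21.2 CPM in Antisense_NC (1.07 ± 0.10 SE, adjusted p = 1.4e-11). The antisense libraries stood clear of the others, while CRLM1_NC and Ctrl_NC overlapped. FDXR, the mitochondrial ferredoxin reductase, measured 72.1, 69.2 and 73.9 CPM, 86.8, 83.8 and 87.6 CPM and 128, 129 and 133 CPM in the same order of groups (0.82 ± 0.046 SE, adjusted p = 4.7e-18 for the antisense line), with no overlap among the 3 lines. SESN1 rose by 0.82 ± 0.11 (adjusted p = 5.5e-08) and NINJ1, which mediates rupture of the plasma membrane in dying cells, by 0.44 ± 0.054 (adjusted p = 4.8e-09). GDF15 rose by less, at 1106, 1043 and 1057 CPM in Ctrl_NC and 1220.4, 1215 and 1287 CPM in Antisense_NC (0.18 ± 0.031 SE, adjusted p = 3.8e-06).

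Of the 9 genes of cell death and survival, 4 rose and 1 fell. TNFRSF10A, a receptor for the death ligand TRAIL, measured 46.8, 46.7 and 51.3 CPM in Ctrl_NC, 62.5, 59.7 and 63.1 CPM in CRLM1_NC and 81.2, 76.8 and 86.2 CPM in Antisense_NC (0.72 ± 0.057 SE, adjusted p = 1.2e-13). TNFRSF10B, the other apoptosis-inducing TRAIL receptor, measured 421, 426 and 427 CPM, 342, 344 and 353 CPM and 503, 519.8 and 507 CPM in the same order (0.23 ± 0.032 SE, adjusted p = 9.8e-08). The receptors thus took different orders over the lines: CRLM1_NC lay between the others for TNFRSF10A and below both for TNFRSF10B. APAF1 rose by 0.82 ± 0.096 (adjusted p = 2.0e-09) and CYFIP2, a subunit of the actin-regulating WAVE complex, by 0.34 ± 0.057 (adjusted p = 2.7e-06). TRIAP1, an inhibitor of apoptosis, fell (-0.22 ± 0.082 SE, adjusted p = 0.019), with a value of 0.0083 on the FPKM scale, and it no longer passed without Ctrl_NC replicate 1 (-0.19, adjusted p = 0.071) or without Antisense_NC replicate 3 (-0.15, adjusted p = 0.13). FAS, a death receptor, had 0.19 ± 0.11 (SE, adjusted p = 0.11) and passed without Ctrl_NC replicate 1 (0.30, adjusted p = 0.024). AEN, an apoptosis-enhancing nuclease, PHLDA3, an inhibitor of AKT, and TP53I3 had log2 fold changes of 0.051, 0.036 and 0.045 and did not pass.

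The genes grouped under cell cycle arrest went both ways, though not each of them is known only for halting the cycle. CDKN1A measured 965, 938 and 933 CPM in Ctrl_NC, 1049.6, 1035 and 1063 CPM in CRLM1_NC and 1057, 1100.5 and 1099 CPM in Antisense_NC. This was a rise of 1.12-fold in the antisense line (0.16 ± 0.030 SE, adjusted p = 1.1e-05) with no overlap with the control. BTG2, an antiproliferative factor that promotes the removal of mRNA tails, rose further, from 61.3, 63.1 and 64.8 CPM in Ctrl_NC to 102, 105 and 103 CPM in Antisense_NC (0.67 ± 0.049 SE, adjusted p = 8.3e-15). PLK3, a polo-like stress kinase, rose by 0.12 ± 0.034 (adjusted p = 0.002) and CCNG1, cyclin G1, by 0.31 ± 0.047 (adjusted p = 4.1e-07), the latter with a value of -0.022 once a trend with GC content and transcript length was removed. Against this, PLK2, a polo-like kinase of stressed cells that has an exact paired element upstream, fell from 354, 352 and 369 CPM in Ctrl_NC to 197, 191 and 186 CPM in Antisense_NC (-0.94 ± 0.036 SE, adjusted p = 4.9e-23). SERTAD1, which binds CDK4 and coactivates E2F, fell from 125, 127 and 118 CPM to 56.98, 53.99 and 57.9 CPM (-1.17 ± 0.050 SE, adjusted p = 1.2e-21), and GADD45A from 387, 377 and 388 CPM to 274, 259 and 274 CPM (-0.55 ± 0.035 SE, adjusted p = 1.9e-16). The antisense libraries of these 3 genes all lay below the control libraries. BTG1, a relative of BTG2, fell as well (-0.21 ± 0.035 SE, adjusted p = 2.3e-06) and had a value of 0.022 on the FPKM scale.

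On the FPKM scale, where the median of all genes shifted by 0.18, 28 of the 30 genes passed with 25 higher and 3 lower (56.7% of all genes, 39.6% higher and 17.1% lower). Of all genes that passed, 69.8% were higher, against 51.6% on the count scale. With a trend of GC content and length removed, several rises were smaller. MDM2 stood at 0.65, ZMAT3 at 0.17, RRM2B at 0.24, APAF1 at 0.50 and SESN1 at 0.47, and GADD45A at -0.36. CDKN1A at 0.27, PLK3 at 0.25, GDF15 at 0.49 and BTG1 at -0.59 lay further from 0, and TRIAP1 did not pass (-0.11, adjusted p = 0.24). In all, 23 passed with 19 higher and 4 lower (64.3% of all genes, 30.4% higher and 33.8% lower), and in a single fit of all 18 libraries 15 passed (32.5% of all genes).

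**Figure D2:**
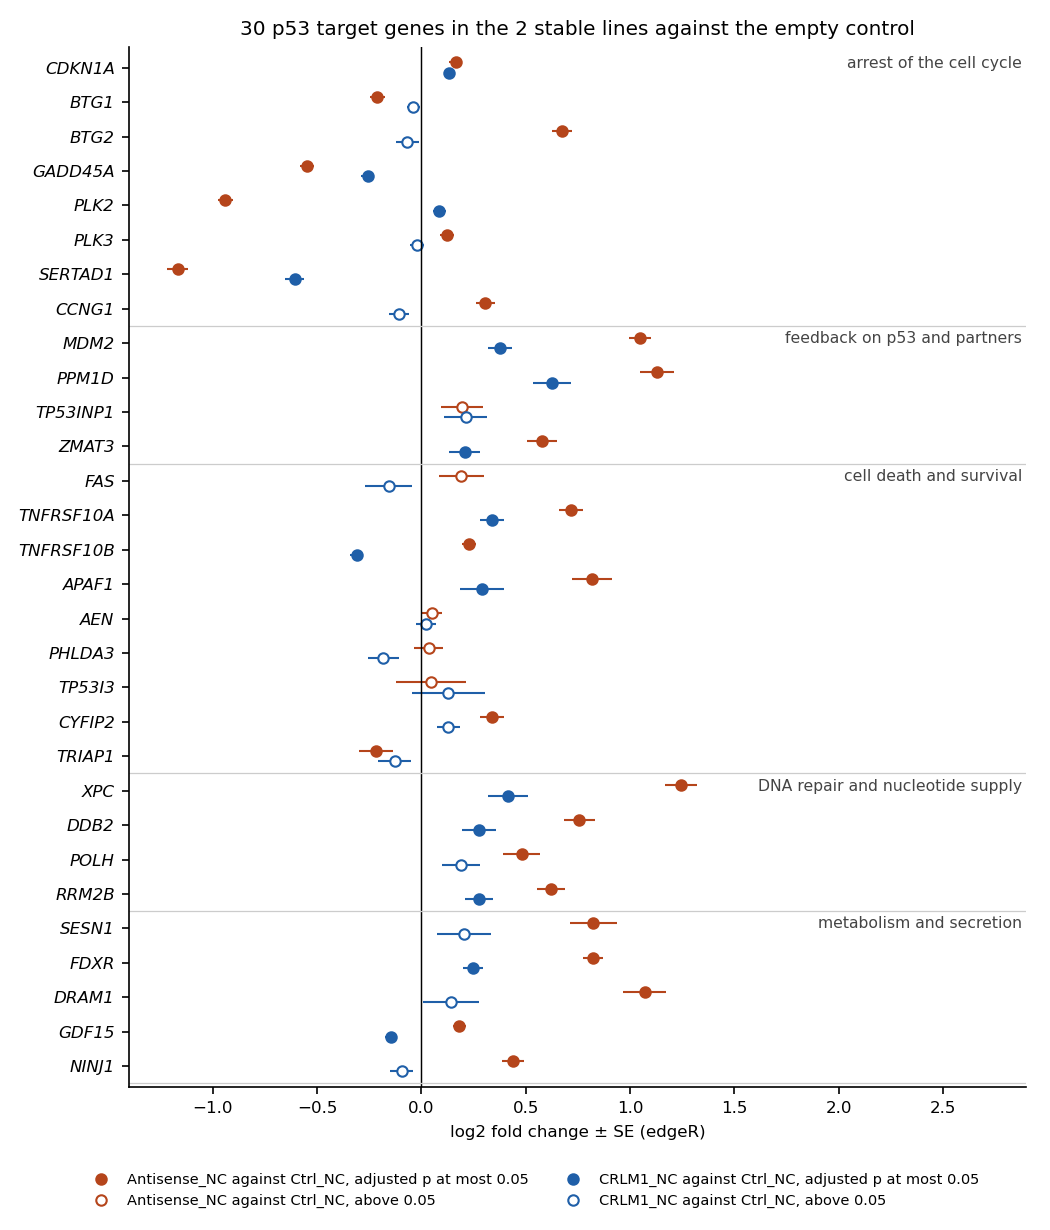
Log2 fold change ± SE of the 30 tested p53 target genes in Antisense_NC and in CRLM1_NC, each against Ctrl_NC, by role. MDM2, PPM1D, XPC and DRAM1 reach the furthest right in the antisense line and SERTAD1 the furthest left; in the CRLM1 line the values run from -0.61 for SERTAD1 to 0.63 for PPM1D.

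The comparison of CRLM1_NC with Ctrl_NC set the line with stable CRLM1 expression against the empty control line. Effects of the construct and other differences between the lines cannot be told apart in it. The differences were small: 15 of 30 genes passed, 11 higher and 4 lower, against 34.3% of 14459 genes (16.9% higher and 17.4% lower), and 0 of 30 reached 2-fold (1.58% of all genes). The median was 0.13, with 0.0059 over all genes. The p53 antagonists MDM2 and PPM1D and the repair genes XPC, DDB2 and RRM2B rose, the TRAIL receptors moved in opposite directions, and GADD45A and SERTAD1 fell. Since this comparison and that of Antisense_NC use the same 3 Ctrl_NC libraries, a shared direction is not an independent repeat.

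PPM1D had the highest value, 0.63 ± 0.092 (SE, adjusted p = 7.3e-07) or 1.54-fold, followed by XPC at 0.42 ± 0.094 (SE, adjusted p = 5.1e-04) and MDM2 at 0.38 ± 0.057 (SE, adjusted p = 1.2e-06). RRM2B rose by 0.28 ± 0.069 (adjusted p = 0.0014), DDB2 by 0.28 ± 0.081 (adjusted p = 0.0068) and FDXR by 0.25 ± 0.048 (adjusted p = 7.9e-05). CDKN1A was 1.10-fold higher (0.13 ± 0.027 SE, adjusted p = 1.5e-04), and its 3 CRLM1_NC libraries lay above the 3 Ctrl_NC libraries. TNFRSF10A rose by 0.34 ± 0.057 (adjusted p = 8.4e-06), whereas TNFRSF10B was 1.24-fold lower (-0.31 ± 0.031 SE, adjusted p = 9.2e-11). SERTAD1 was 1.52-fold lower, at 78.7, 80.9 and 86.2 CPM (-0.61 ± 0.046 SE, adjusted p = 7.2e-14), and GADD45A 1.20-fold lower, at 316, 326 and 333 CPM (-0.26 ± 0.032 SE, adjusted p = 1.8e-08). GDF15 was 1.11-fold lower, at 972, 973 and 981 CPM (-0.15 ± 0.028 SE, adjusted p = 6.0e-05), which was -0.07 on the FPKM scale (adjusted p = 0.12).

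The small rises of PLK2 (0.085 ± 0.031 SE, adjusted p = 0.031), ZMAT3 (0.21 ± 0.073 SE, adjusted p = 0.025) and APAF1 (0.29 ± 0.11 SE, adjusted p = 0.029) passed with all libraries, and each was lost when any of several single libraries was left out. PLK2 was lost without CRLM1_NC replicate 2 or 3 or Ctrl_NC replicate 1 or 2 (0.07 to 0.09). ZMAT3 was lost without CRLM1_NC replicate 1 or 3 or Ctrl_NC replicate 1 or 2 (0.18 to 0.20), and APAF1 without CRLM1_NC replicate 1 or 3 or Ctrl_NC replicate 2 or 3 (0.19 to 0.29). DDB2 was lost without CRLM1_NC replicate 1 (0.23, adjusted p = 0.057). FAS, TP53INP1 and PHLDA3, which did not pass, did so without 1 or more single libraries. In a single edgeR fit of all 18 libraries 0 of 30 passed (0.651% of all genes). DESeq2 called 13 of 30, and 4053 of all 12946 genes. With the GC and length trend removed PLK2 (0.065), ZMAT3 (0.10), APAF1 (0.19) and GDF15 (-0.036) did not pass. On the FPKM scale 15 passed, 12 higher and 3 lower (24.0% of all genes, 15.6% higher and 8.35% lower). There 65.1% of all genes that passed were higher, against 49.4% on the count scale.

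The study compared CRLM1 with an antisense and with a free plasmid control, and followed up the genes of the latter comparison. It describes that experiment apart from the one with the hnRNPK construct. Its text does not say whether the libraries are those used here. Between CRLM1_NC and Antisense_NC the p53 targets were mostly lower in the CRLM1 line. 25 of 30 passed, 4 higher and 21 lower, against 56.4% of 14364 genes (26.9% higher and 29.5% lower), with a median of -0.34 (all genes -0.0034). BTG1, GADD45A, PLK2 and SERTAD1 were the genes that were higher. PLK2 was the 1 gene past 2-fold (7.18% of all genes), at 2.04-fold higher in the CRLM1 line (1.03 ± 0.037 SE, adjusted p = 4.7e-24). XPC at -0.82 ± 0.079 (SE, adjusted p = 2.1e-11), DRAM1 at -0.92 ± 0.11 (SE, adjusted p = 1.1e-08) and BTG2 at -0.74 ± 0.051 (SE, adjusted p = 3.4e-15) were among those lower. CDKN1A, TP53INP1, AEN, TP53I3 and TRIAP1 did not pass, with log2 fold changes of -0.025, 0.022, -0.025, 0.088 and 0.095. On the FPKM scale, where the median of all genes shifted by -0.13, 26 passed with 3 higher and 23 lower (45.5% of all genes, 12.5% higher and 33.0% lower), and of all genes that passed 27.5% were higher, against 47.6% on the count scale. BTG1 had a value of 0.01 (adjusted p = 0.83) instead of 0.18 ± 0.036 (SE, adjusted p = 8.1e-05). With the GC and length trend removed ZMAT3 went from -0.37 to -0.070 and RRM2B from -0.34 to -0.021, and neither passed. PHLDA3, at -0.22 ± 0.076 (SE, adjusted p = 0.015), did not pass without CRLM1_NC replicate 1 or 2 or without Antisense_NC replicate 3 (-0.20, -0.15 and -0.17).

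The hnRNPK construct was compared with NC within each background to ask which genes responded to hnRNPK, an RNA- and DNA-binding protein and known coactivator of p53. In the antisense background, whose 3 hnRNPK libraries resembled each other, the targets were divided: 16 of 30 passed, 6 higher and 10 lower, against 63.9% of 14501 genes (33.4% higher and 30.5% lower). The median was 0.017, with 0.040 over all genes. RRM2B, TNFRSF10A, DRAM1 and TRIAP1 rose and CDKN1A, BTG2, PLK3, SERTAD1, AEN, CYFIP2 and NINJ1 fell, each with the same sign on the FPKM scale and after removal of the GC and length trend. BTG2 did not pass on the FPKM scale (-0.13, adjusted p = 0.15), and CDKN1A (-0.12, adjusted p = 0.32) and TRIAP1 (0.079, adjusted p = 0.59) did not after the removal. The other 5 that passed, CCNG1 and MDM2 higher and PHLDA3, FDXR and GDF15 lower, changed sign after that removal, where FDXR passed as higher (0.30). The last 3 did not pass on the FPKM scale. With the trend removed 19 of 30 passed, 6 higher and 13 lower (39.3% of all genes, 18.4% higher and 20.9% lower), among them PPM1D, TP53INP1, ZMAT3, APAF1 and SESN1 as lower (-0.44, -0.40, -0.45, -0.33 and -0.57).

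The fall of PLK3 was the furthest, from 311, 308 and 321 CPM in Antisense_NC to 119, 94.5 and 129 CPM in Antisense_hnRNPK, or 2.76-fold (-1.47 ± 0.10 SE, adjusted p = 1.0e-07). NINJ1 fell from 89.4, 82.95 and 96.2 CPM to 47.5, 40.1 and 45.4 CPM, 2.03-fold (-1.02 ± 0.088 SE, adjusted p = 3.9e-07), and these were the 2 genes past 2-fold (13.4% of all genes). CDKN1A fell from 1057, 1100.5 and 1099 CPM to 699.7, 666 and 761 CPM (-0.62 ± 0.081 SE, adjusted p = 1.2e-05). For each of these genes every hnRNPK library lay below every NC library. After removal of the GC and length trend PLK3 stood at -0.85, NINJ1 at -0.57 and SERTAD1 at -0.26 (from -0.54).

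Of the genes that rose, RRM2B went from 59.99, 57.98 and 54.5 CPM to 112, 104 and 123 CPM (0.97 ± 0.082 SE, adjusted p = 3.3e-07), and its hnRNPK libraries all lay above the NC libraries. With the trend removed it stood at 0.26, and DRAM1 at 0.36. MDM2 went from 99.9, 109 and 94.7 CPM to 136, 158 and 149.9 CPM (0.54 ± 0.084 SE, adjusted p = 6.0e-05), again with no overlap, and had a value of -0.097 once the trend was removed. TNFRSF10A rose by 0.40 ± 0.082 (adjusted p = 6.5e-04) and DRAM1 by 0.63 ± 0.093 (adjusted p = 3.7e-05). TRIAP1 (0.34 ± 0.12 SE, adjusted p = 0.019) was lost without Antisense_NC replicate 3 (0.27, adjusted p = 0.11) or without Antisense_hnRNPK replicate 1 (0.22, adjusted p = 0.13). ZMAT3, FAS and APAF1 passed without Antisense_hnRNPK replicate 2, and PLK2 without replicate 3 (-0.44). On the FPKM scale, where the median of all genes shifted by 0.26, 22 of 30 passed with 16 higher and 6 lower (53.4% of all genes, 36.1% higher and 17.3% lower), and 67.6% of all genes that passed were higher, against 52.3% on the count scale.

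**Figure D3:**
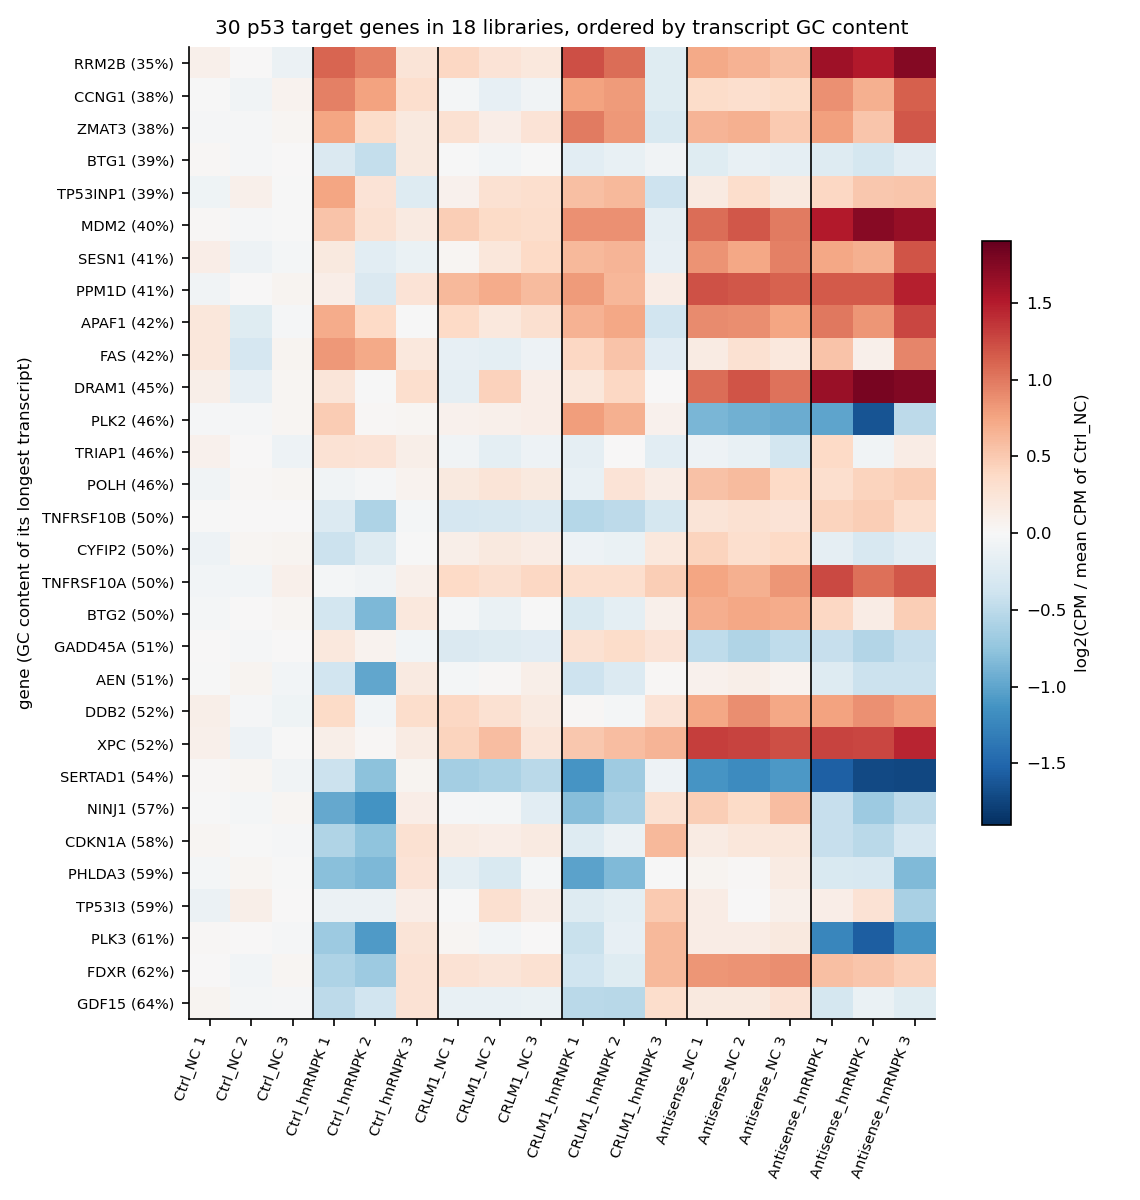
Log2 of the CPM of the 30 tested p53 target genes in the 18 libraries, relative to the mean of the Ctrl_NC libraries, with genes ordered by the GC content of their longest transcript. RRM2B, the top row with a GC content of 35.1%, reads 78.97 and 71.00 CPM in replicates 1 and 2 of Ctrl_hnRNPK and 43.2 CPM in replicate 3, while CDKN1A, with 58.1%, reads 636 and 557 and 1151 CPM there.

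In the control and CRLM1 backgrounds the outcome turned on replicate 3. With all 3 libraries 0 of the 30 genes passed in Ctrl_hnRNPK against Ctrl_NC (0.0% of 14607 genes), and 0 passed in CRLM1_hnRNPK against CRLM1_NC (0.0% of 14394 genes). edgeR gave 2246 genes in the first and 1332 in the second an unadjusted p under 0.05, and DESeq2 called 0 and 2 genes. Without replicate 3 of the hnRNPK group, 20 of the 30 genes passed in the control background, 8 higher and 12 lower (59.6% of 15004 genes, 29.6% higher and 29.9% lower). In the CRLM1 background 22 passed, 10 higher and 12 lower (58.5% of 14685 genes, 29.5% higher and 29.1% lower).

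CDKN1A shows the split within the groups. Replicates 1 and 2 of Ctrl_hnRNPK stood at 636 and 557 CPM and replicate 3 at 1151 CPM, on either side of Ctrl_NC at 965, 938 and 933 CPM. In CRLM1_hnRNPK the values were 801 and 877 CPM against 1447 CPM, again on either side of CRLM1_NC at 1049.6, 1035 and 1063 CPM. NINJ1, FDXR and GDF15 had the same arrangement, with NINJ1 at 32.8 and 29.4 CPM in the first replicates of Ctrl_hnRNPK and 70.1 CPM in the third, and at 36.7 and 42.2 CPM and 78.3 CPM in CRLM1_hnRNPK. With all libraries the log2 fold change of CDKN1A was -0.31 ± 0.26 (SE, adjusted p = 0.46) for Ctrl_hnRNPK and 0.0083 ± 0.22 (SE, adjusted p = 0.99) for CRLM1_hnRNPK. Without replicate 3 it was -0.67 ± 0.060 (SE, adjusted p = 5.9e-08) and -0.29 ± 0.049 (SE, adjusted p = 1.0e-05). NINJ1 was at -1.05 ± 0.087 (SE, adjusted p = 2.1e-08) and -0.59 ± 0.080 (SE, adjusted p = 2.8e-07) without replicate 3, and at -0.59 and -0.20 with it.

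Among the genes that rose without replicate 3, RRM2B was at 1.04 ± 0.087 (SE, adjusted p = 2.5e-08) in the control and 0.89 ± 0.072 (SE, adjusted p = 1.9e-11) with CRLM1. CCNG1 was at 0.86 ± 0.073 (SE, adjusted p = 3.0e-08) and 0.92 ± 0.057 (SE, adjusted p = 9.6e-14). In replicates 1 and 2 RRM2B stood at 78.97 and 71.00 CPM in Ctrl_hnRNPK and 85.4 and 75.99 CPM in CRLM1_hnRNPK, above the NC libraries of each background, with replicate 3 at 43.2 CPM and 31.3 CPM. MDM2, ZMAT3, TP53INP1, FAS and APAF1 also rose in both backgrounds, MDM2 by 0.42 ± 0.088 and 0.51 ± 0.064. The GC and length trend was not removed in any fit without replicate 3. In the antisense background its removal turned CCNG1, MDM2, ZMAT3, TP53INP1 and APAF1 below 0, while RRM2B stayed above 0. FAS did not pass there with all libraries, and its values ran from -0.17 to 0.54 over all fits of that comparison. GADD45A and PLK2 passed in the CRLM1 background, at 0.60 ± 0.048 (SE, adjusted p = 1.4e-11) and 0.68 ± 0.047 (SE, adjusted p = 9.4e-13), and did not in the control background, at 0.13 ± 0.059 (SE, adjusted p = 0.063) and 0.27 ± 0.12 (SE, adjusted p = 0.088). RRM2B and NINJ1 were the genes past 2-fold in the control background (6.88% of all genes), and 0 of 30 were past it in the CRLM1 background (5.3%).

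In all 3 backgrounds the response to the construct ran with the GC content of the transcript, taken from the longest annotated transcript of each gene. In the antisense background 3 of the 10 tested genes with a GC content under 45% rose and 0 fell, 3 rose and 4 fell of the 13 between 45% and 55%, and 0 rose and 6 fell of the 7 over 55%. Without replicate 3 the counts were 7 higher and 1 lower, 1 and 5, and 0 and 6 in the control background, and 8 and 1, 2 and 5, and 0 and 6 in the CRLM1 background. Over all genes of the same classes in the antisense background 70.4% rose and 2.91% fell under 45%, 21.9% and 28.9% between 45% and 55%, and 2.15% and 65.5% over 55%. Without replicate 3, 67.5% of all genes under 45% rose and 64.5% of those over 55% fell in the control background, and 65% and 65.9% in the CRLM1 background. Spearman's rho between log2 fold change and GC content over the 30 genes, which share the libraries, was -0.74 in the antisense background. Without replicate 3, Ctrl_hnRNPK gave -0.76 and CRLM1_hnRNPK -0.83. After removal of the trend rho became 0.27 for Antisense_hnRNPK. Over all genes the count-weighted GC content of the libraries was 48.7% to 50% with the construct, 51.3% to 52.2% with NC, and 52.5% to 52.8% in the third replicates of Ctrl_hnRNPK and CRLM1_hnRNPK. The part of this in the results above was not tested beyond the removal of the trend.

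**Figure D4:**
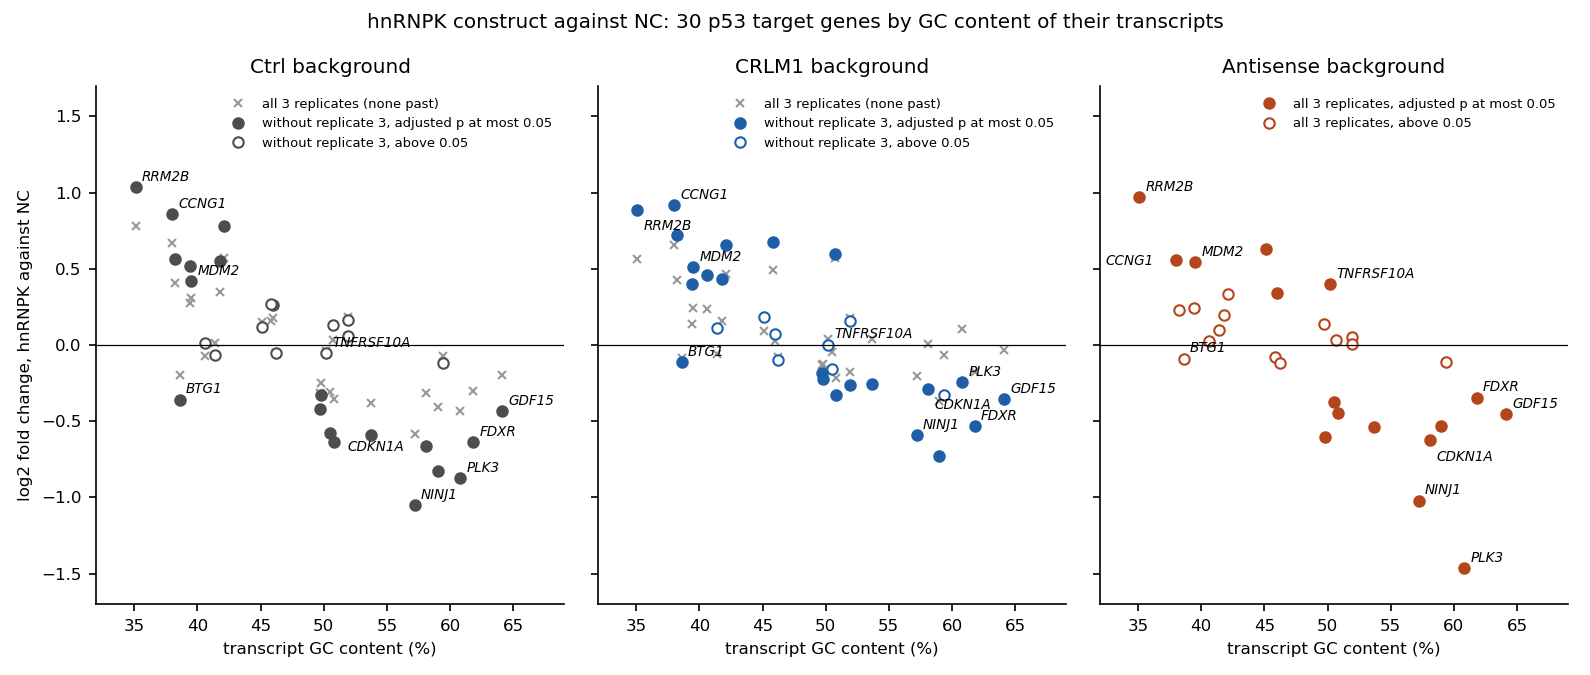
Log2 fold change of each of the 30 tested p53 target genes with the hnRNPK construct against NC in the 3 backgrounds, by the GC content of its longest transcript (%); filled points have an adjusted p of at most 0.05, open points do not, and crosses give all 3 replicates where the points leave out replicate 3. RRM2B, with the lowest GC content, lies highest in the control and antisense panels and next to highest in the CRLM1 panel, and 6 of the 7 genes over 55% are filled points below 0 in each panel.

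Whether the response differed between backgrounds was tested by an interaction term. With all libraries, 1 of 30 genes passed between the CRLM1 and antisense backgrounds (1.12% of 15233 genes, 0.807% higher and 0.315% lower), 0 between the CRLM1 and control backgrounds (0.0% of 15188 genes, 221 at an unadjusted p under 0.05 in edgeR and 0 called by DESeq2). Between the antisense and control backgrounds 0 passed (0.0% of 15346 genes, 2179 at an unadjusted p under 0.05 in edgeR and 289 called by DESeq2). The 1 gene was PLK3, whose hnRNPK response was 1.56 ± 0.29 log2 units higher in the CRLM1 than in the antisense background (adjusted p = 0.027). Replicate 3 of CRLM1_hnRNPK stood at 431 CPM and replicates 1 and 2 at 210.2 and 251 CPM, against 288, 271 and 281 CPM in CRLM1_NC. Without that replicate the difference was 1.24 (adjusted p = 2.3e-05), since PLK3 then fell by less in the CRLM1 background (-0.24 ± 0.059 SE, adjusted p = 8.7e-04) than in the antisense background. In a single fit of all libraries it did not pass (adjusted p = 0.054), nor when any 1 of the NC libraries or replicate 1 or 2 of Antisense_hnRNPK was left out (1.43 to 1.60, adjusted p = 0.089 to 0.10).

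Without replicate 3 of both hnRNPK groups that enter a fit (in the antisense background too), 4 genes passed between the CRLM1 and control backgrounds (3.45% of all genes, 3.36% higher and 0.0904% lower), each with a higher response in the CRLM1 background: CDKN1A (0.41 ± 0.079 SE, adjusted p = 0.0039), GADD45A (0.49 ± 0.076 SE, adjusted p = 5.5e-04), PLK3 (0.66 ± 0.13 SE, adjusted p = 0.0087) and NINJ1 (0.49 ± 0.12 SE, adjusted p = 0.019). For CDKN1A, PLK3 and NINJ1 this was a smaller fall and for GADD45A a rise where the control background did not pass. Between the CRLM1 and antisense backgrounds 13 passed, 11 higher and 2 lower (26.5% of all genes, 17.3% higher and 9.23% lower), the 2 being TNFRSF10A (-0.39 ± 0.11) and TNFRSF10B (-0.36 ± 0.084). Between the antisense and control backgrounds 9 passed, 5 higher and 4 lower (16.0%, 6.58% higher and 9.47% lower). The comparisons share the libraries of each background, so these counts are not independent of each other.

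The genes that control p53 were read beside its targets. MDM4, which inhibits p53 with MDM2, measured 44.2, 42.1 and 35.9 CPM in Ctrl_NC and 62.5, 64.5 and 59.5 CPM in Antisense_NC (0.58 ± 0.066 SE, adjusted p = 1.1e-09). Of the 25 tested regulators of p53, 15 rose and 4 fell in the antisense line (median 0.32; 34.4% of all genes rose and 32.2% fell), with CREBBP, a histone acetyltransferase that acts on p53, at 1.10 ± 0.059 (SE, adjusted p = 1.1e-18) and USP7, a deubiquitinase of MDM2 and p53, at 1.06 ± 0.052 (SE, adjusted p = 7.5e-20) among the highest. In CRLM1_NC 7 rose and 2 fell (16.9% and 17.4% of all genes). With the construct in the antisense background 11 rose and 11 fell (33.4% and 30.5% of all genes), the kinases ATM and ATR at 1.23 and 1.23 among the highest and the nuclear body protein PML at -1.33 the lowest. Transcript GC content is 39.4% for ATM, 39.7% for ATR and 58.2% for PML. In this comparison 70.4% of all genes under 45% rose and 65.5% of those over 55% fell. Values with the GC and length trend removed are not given for this list or those below, and the part of GC content in them was not tested.

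A further list held 58 tested p53 targets. The shares of all genes that rose or fell are those given for the regulators. In the antisense line 32 rose and 16 fell (median 0.21), the highest being SESN2, a sestrin, at 2.44 ± 0.045 (SE, adjusted p = 3.1e-33), and among the lowest were ATF3, a stress transcription factor, at -0.92 ± 0.036 (SE, adjusted p = 8.8e-23) and THBS1, thrombospondin 1, at -0.82 ± 0.11 (SE, adjusted p = 2.5e-08). In the CRLM1 line 18 rose and 9 fell (median 0.057), with THBS1 at 0.84 ± 0.084 (SE, adjusted p = 1.5e-10). With the construct in the antisense background 22 rose and 24 fell (median -0.079). Without replicate 3, 16 rose and 28 fell of 57 in the control (29.6% and 29.9% of all genes) and 18 and 25 of 58 in the CRLM1 background (29.5% and 29.1%). With all libraries 0 passed in either.

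A list of 16 cell cycle genes holds those that p53 lowers through p21 and the DREAM repressor. In the antisense line 8 of 16 rose and 3 fell (median 0.19), and 66.5% of all genes passed there, with the survivin gene BIRC5 at -0.59 ± 0.046 (SE, adjusted p = 6.1e-14) the lowest. In the CRLM1 line 5 rose and 2 fell (median 0.095; 34.3% of all genes passed). With the construct in the antisense background 9 rose and 5 fell (median 0.28; 63.9% of all genes passed), among them the mitotic kinase genes CDK1 at 0.66 ± 0.082 (SE, adjusted p = 7.8e-06) and AURKB at -0.80 ± 0.079 (SE, adjusted p = 1.2e-06).

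Target genes of ATF4, the transcription factor of the amino acid and unfolded protein responses, which shares some stress genes with p53, were listed as well. In the antisense line 9 of 14 rose and 4 fell (median 0.89), 6 of them past 2-fold (66.5% of all genes passed and 14.1% were past 2-fold), among them CHAC1, a glutathione-degrading enzyme, at 5.47 ± 0.14 (SE, adjusted p = 9.0e-29), TRIB3, a pseudokinase, at 3.40 ± 0.092 (SE, adjusted p = 3.3e-15) and SLC7A11, the cystine transporter, at 2.66 ± 0.097 (SE, adjusted p = 1.3e-23). In the CRLM1 line 5 rose and 4 fell (median 0.059; 34.3% of all genes passed), with CHAC1 at 0.95 ± 0.32 (SE, adjusted p = 0.017) and CEBPB, a transcription factor, at -0.82 ± 0.035 (SE, adjusted p = 5.9e-21). With the construct in the antisense background 6 of 15 rose and 3 fell (median 0.29; 63.9% of all genes passed), with SLC7A11 at 2.19 ± 0.17 (SE, adjusted p = 1.6e-06). Without replicate 3, 1 rose and 10 fell of 14 in the control and 2 and 8 in the CRLM1 background (59.6% and 58.5% of all genes passed). These values stand beside those of the p53 targets in the antisense line, and their part in the p53 target differences was not tested.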

How the data were processed

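Total RNA of 18 HCT116 libraries was prepared with the KAPA RNA HyperPrep kit and sequenced in paired ends. The authors aligned reads with TopHat2 to GRCh38 and deposited a table of read counts per gene (unnormalised) and a table of FPKM, and the strand used in counting is not given in the sources used here. The submitters' notes also name bcl2fastq and edgeR.

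The members and the comparison lists were chosen with earlier results of these data known. Counts were tested with edgeR 4.0.16 (R 4.3.3; filterByExpr, TMM, quasi-likelihood F-test) on the libraries of each comparison, and differences between backgrounds with an interaction term over 12 libraries. A gene passed at a Benjamini-Hochberg adjusted p of at most 0.05, and a 2-fold limit was applied separately. Alternatives were RLE size factors, no filter (at least 1 count), DESeq2 1.42.0, limma-trend 3.58.1 on log2(FPKM + 0.1) and log2(FPKM + 1) for genes of mean FPKM of at least 0.1 (fold changes of low genes are understated on this scale), a single fit of all libraries, a replicate block, removal of a trend with GC content and transcript length, and leaving out each library. Counts of the other lists and of GC classes without replicate 3, and the shares of all genes by GC class, were added after seeing the data. The fits were tested on simulated counts. The named genes are all 31 members, and from the other lists MDM4 and genes among the highest and lowest 3 that passed. A further gene that the rule names is not reported here. The p53 element was searched in GRCh38 with Gencode gene starts.

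Counts of 19732681 to 27039520 per library set the precision, and intervals from counting cover counting error only. Replicate numbers did not pair the samples: over genes, deviations of same-numbered libraries from their group means correlated at -0.069 to 0.034.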

Additional observations from a re-analysis of the deposited data

Results flagged for a closer look

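One difference between groups passed its own test. PLK3, a polo-like stress kinase, responded differently to the hnRNPK construct in the CRLM1 and the antisense background, by 1.56 on the log2 scale (edgeR interaction term, adjusted p = 0.027). Its level fell in 3 of 3 Antisense_hnRNPK libraries, and in CRLM1_hnRNPK it was lower in replicates 1 and 2 and higher in replicate 3 than in every CRLM1_NC library. Without replicate 3 of CRLM1_hnRNPK the difference was 1.24 (adjusted p = 2.3e-05). In a single fit of all libraries it did not pass (adjusted p = 0.054), nor when any 1 of the 6 NC libraries or replicate 1 or 2 of Antisense_hnRNPK was left out (adjusted p = 0.089 to 0.10).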

How the results depend on the processing

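In the control and CRLM1 backgrounds the counts of genes that passed with the construct moved with the libraries used. Leaving out 1 library at a time gave 0 to 20 genes for Ctrl_hnRNPK and 0 to 22 for CRLM1_hnRNPK against NC, 0 to 7 for the difference between the CRLM1 and antisense backgrounds and 0 to 3 for that between the antisense and control backgrounds. The counts of 20 and 22 came without replicate 3, where 59.6% and 58.5% of all genes passed. For the fits that gave 7 and 3 genes the share of all genes is not given here. Those 2 counts therefore do not show a change particular to the listed genes. Without replicate 3 of both hnRNPK groups the differences between backgrounds gave 4 (CRLM1 and control), 13 (CRLM1 and antisense) and 9 genes (antisense and control). Of all genes 3.45%, 26.5% and 16.0% passed there. In the antisense and control difference PHLDA3 stood at 0.45 and FDXR at 0.32, of opposite sign to all libraries. In CRLM1_hnRNPK, values over the fits that leave out 1 library ran from -0.29 to 0.15 for CDKN1A, -0.24 to 0.28 for PLK3 and -0.26 to 0.23 for SERTAD1, each below 0 without replicate 3. A single fit of all libraries gave 0 genes for CRLM1_NC and 15 for Antisense_NC against Ctrl_NC, 10 for CRLM1_NC against Antisense_NC, 9 for Antisense_hnRNPK and 0 for the CRLM1 and antisense difference. In the same order 102, 5093, 2357, 6369 and 180 of all 15668 genes passed in that fit. The CRLM1 and antisense difference gave 2 genes with no filter, 2 with DESeq2, 2 and 3 on the FPKM scales and 5 after trend removal, against 1. Over all genes this difference passed for 171 of 15233 in the main fit and 1027 of 12779 with DESeq2. On log2(FPKM + 0.1) it passed for 264 of 16844, and after trend removal for 1871 of 15233. No filter gave 1 gene for Ctrl_hnRNPK and 1 for the antisense and control difference, against 0. Shares of all genes are not given here for the fits with no filter or on log2(FPKM + 1). The counts from those fits therefore do not show a change particular to the listed genes. With the adjusted p alone in place of the 2-fold limit, 15 (CRLM1_NC) and 25 (Antisense_NC) genes passed against Ctrl_NC, 25 for CRLM1_NC against Antisense_NC and 16 for Antisense_hnRNPK. In the same order 34.3%, 66.5%, 56.4% and 63.9% of all genes passed.

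On the FPKM scales BTG1 (0.022 and 0.022) and TRIAP1 (0.0083 and 0.0080) changed sign in Antisense_NC and BTG1 (0.16 and 0.16) in Antisense_hnRNPK. Removal of the GC and length trend turned CCNG1 to -0.022 in Antisense_NC, and in Antisense_hnRNPK CCNG1 (-0.14), MDM2 (-0.097), PPM1D (-0.44), TP53INP1 (-0.40), ZMAT3 (-0.45), APAF1 (-0.33), SESN1 (-0.57), PHLDA3 (0.026), FDXR (0.30) and GDF15 (0.20). The cause of these changes was not tested beyond what each alternative removes.

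The replicate block gave 15, 25 and 25 genes for the stable lines, 0, 0 and 16 for the construct and 0, 1 and 0 for the differences between backgrounds, the same counts as without it.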
